A study of Mus musculus with 16 samples.

Results

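The B lineage progenitor genes are 9 of the 49585 gene identifiers in the deposited count tables. They are Dntt, Rag1, Ebf1, Pax5, Igll1, Vpreb1, Vpreb3, Cd79a and Cd79b, taken by symbol. They were followed across 16 RNA sequencing libraries of cells labelled as sorted neutrophils from the bones of C57BL/6 mice aged 8 to 12 weeks. Libraries labelled P2KO (n = 4) carry Vav:cre-PHD2f/f, a conditional deletion of the oxygen sensor PHD2, encoded by Egln1, and libraries labelled P2WT (n = 4) are the wild type controls of that line. Libraries labelled P2H2KO (n = 4) carry Vav:cre-PHD2/HIF2ff/ff, in which PHD2 and HIF2α, encoded by Epas1, are deleted together, and libraries labelled P2H2WT (n = 4) are the wild type controls of the second line. The Vav promoter drives Cre in blood-forming cells and their descendants, so lymphoid cells of these mice are subject to the deletion as well as neutrophils. The labels do not say whether the controls carry Cre or floxed alleles. The series is about how HIF2α affects the movement of neutrophils, and these genes are outside that question.

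B lymphocytes are made in the bone marrow through pro-B and pre-B stages. The transcription factors Ebf1 and Pax5 establish B lineage identity, the recombinase of Rag1 and Rag2 assembles the immunoglobulin heavy chain gene, and Dntt, which encodes terminal deoxynucleotidyl transferase, adds bases at the joints. The new heavy chain is first displayed with a surrogate light chain made of Igll1 (also called λ5) and Vpreb1, and this pre-B receptor signals through Cd79a and Cd79b. Neutrophils are myeloid cells and are not known for making these products. Dntt, Igll1 and Vpreb1 mark progenitors, whereas Pax5, Ebf1, Cd79a and Cd79b are also used by mature B cells.

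Gene coordinates below come from the GENCODE M21 annotation of GRCm38. Promoters are shown for 3 genes whose upstream 250 bases hold, between them, a match to each of 4 motifs of factors known in B cell development. RefSeq (GRCm38.p6) held promoter windows for 8 of the 9 genes, and those shown do not overlap an annotated exon. Start sites are those of RefSeq, and the Vpreb3 window lies inside the gene as GENCODE places it (75943057 to 75949657). Capitals mark a match on either strand, and the sequences are written 5′ to 3′ on the strand of the gene.
Igll1, chr16:16863986-16864235, minus strand: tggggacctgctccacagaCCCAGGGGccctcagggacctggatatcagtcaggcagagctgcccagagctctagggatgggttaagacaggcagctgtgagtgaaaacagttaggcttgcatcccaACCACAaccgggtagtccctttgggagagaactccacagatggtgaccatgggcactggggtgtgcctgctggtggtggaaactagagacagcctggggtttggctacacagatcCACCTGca
Rag1, chr2:101649533-101649782, minus strand: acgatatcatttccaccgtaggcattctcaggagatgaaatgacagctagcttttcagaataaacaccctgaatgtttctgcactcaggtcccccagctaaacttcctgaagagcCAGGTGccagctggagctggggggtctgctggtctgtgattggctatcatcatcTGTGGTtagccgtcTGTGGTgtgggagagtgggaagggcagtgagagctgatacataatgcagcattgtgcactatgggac
Vpreb3, chr10:75948050-75948299, plus strand: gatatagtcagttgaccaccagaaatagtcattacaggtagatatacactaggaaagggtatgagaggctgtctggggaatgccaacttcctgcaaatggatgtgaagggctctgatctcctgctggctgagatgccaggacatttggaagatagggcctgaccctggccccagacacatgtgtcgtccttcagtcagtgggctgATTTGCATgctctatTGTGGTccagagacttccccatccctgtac
The motifs were chosen after the sequences had been seen and were searched from 250 bases before to 50 bases after each start site. The EBF core CCCNNGGG was found in 1 of the 8 genes (Igll1, 231 bases before the start), against 13.7% of all 32851 promoter windows. The E-box CAGGTG was found in 4 genes (Igll1, Rag1, Vpreb1 and Cd79a), against 20.2% of all windows. The RUNX site TGTGGT was also found in 4 genes (Igll1, Rag1, Vpreb3 and, in only 1 of its windows, Ebf1), against 16.8% of all windows. The 8 genes had 9 windows, because Ebf1 had more than 1. The percentages here are shares of windows, whereas the 8 are counted as genes. The octamer ATTTGCAT was found in 1 gene (Vpreb3, 45 bases before the start), against 1.74%. No match overlapped another, and the windows of Pax5 and Dntt held none of the 4. Such a match describes letters only and is neither a measured binding site nor a cause.

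Depth was similar in all libraries, with total counts of 23450746 to 28601284. Levels are given as CPM, the usual depth-scaled count, here on the TMM-scaled library size. Egln1 levels differed between labelled knockouts and controls by less than the spread between libraries, at 49.5 ± 6.40 CPM in P2KO (SD, n = 4 here and below), 48.7 ± 2.21 in P2WT, 53.2 ± 4.39 in P2H2KO and 52.2 ± 2.97 in P2H2WT. Epas1 was at 5.65 ± 2.17 CPM in P2H2KO and 3.56 ± 1.02 in P2H2WT. Neither gene was called in either line (edgeR, adjusted p of at least 0.9999). Whole-gene counts do not show single exons, so the loss of a floxed exon was not checked, and every direction below is between libraries as labelled. The neutrophil gene S100a8 (5245 to 14637 CPM) was abundant in every library. So were the red cell globin gene Hbb-bs (8203 to 17301 CPM) and the immunoglobulin M constant gene Ighm (643.2 to 1319 CPM). The neutrophil gene Ly6g was lower (84.3 to 269.5 CPM). It was below Cd79b in some libraries, such as replicate 9 of P2KO (84.3 against 154.7 CPM). In others it was above, such as replicate 17 of P2H2KO (269.5 against 101.2 CPM). In such bulk samples, fewer cells of a type and less RNA per cell cannot be told apart.

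All 9 genes were detected in all 16 libraries and passed the filter on low counts in every comparison. Replicate 15 of P2H2KO was the lowest library for all 9 of them. Replicate 9 of P2KO was the highest for Igll1, Vpreb1, Ebf1 and Pax5, replicate 14 of P2H2WT for Vpreb3, Cd79a and Cd79b, and replicate 3 of P2WT for Rag1 and Dntt. These 4 libraries held the extremes, and each bears on the comparisons below that include its group. In what follows the libraries are listed as replicates 1, 5, 6 and 9 of P2KO, 10, 3, 4 and 7 of P2WT, 11, 12, 15 and 17 of P2H2KO, and 13, 14, 16 and 18 of P2H2WT. The numbers only name the libraries. Titles also end in m or f, which the labels do not explain: 3 m and 1 f in P2KO, 2 and 2 in P2WT, 2 and 2 in P2H2KO, and 3 and 1 in P2H2WT. Replicate 9 is the only f of P2KO, and replicate 15 of P2H2KO is also an f.

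The recombination genes come first. Dntt (chromosome 19, 41029275 to 41059525, plus strand) was at 19.9, 25.8, 18.02 and 24.1 CPM in P2KO and at 26.3, 32.3, 20.1 and 16.3 CPM in P2WT. It was at 21.0, 28.9, 13.8 and 14.3 CPM in P2H2KO and at 27.7, 29.9, 20.2 and 19.2 CPM in P2H2WT. Values of the groups overlapped in both lines, and Dntt had the narrowest spread of the 9 genes, with 2.35 times more in the highest library than in the lowest. The log2 fold change was -0.10 (SE 0.21, 95% interval -0.57 to 0.36) for P2KO against P2WT. For P2H2KO against P2H2WT it was -0.31 (SE 0.25, 95% interval -0.88 to 0.26).

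Rag1 (chromosome 2, 101638282 to 101649501, minus strand) encodes the subunit of the recombinase that cuts DNA. It was at 36.8, 66.3, 52.5 and 77.4 CPM in P2KO and at 42.9, 98.4, 53.2 and 48.7 CPM in P2WT. In the other line it was at 40.9, 68.1, 25.4 and 51.3 CPM in P2H2KO and at 60.2, 83.4, 43.9 and 44.2 CPM in P2H2WT. Replicate 3 of P2WT lay well above the other P2WT libraries, and the groups overlapped. The log2 fold changes were -0.05 (SE 0.29) in the P2 line and -0.32 (SE 0.30) in the P2H2 line. Its exons share 80 bases, 1.21% of their length, with B230118H07Rik (139 to 207 counts).

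Ebf1 (chromosome 11, 44617317 to 45008091, plus strand) was at 31.3, 47.4, 35.5 and 74.5 CPM in P2KO and at 41.1, 68.6, 45.4 and 35.8 CPM in P2WT. It was at 33.9, 57.7, 12.9 and 27.8 CPM in P2H2KO and at 49.5, 63.7, 26.8 and 26.1 CPM in P2H2WT. One library in each of the first 3 groups stood above its fellows, 2 did so in P2H2WT, and replicate 15 of P2H2KO lay below all others. Ebf1 gave log2 fold changes of -0.01 (SE 0.29) for the P2 line and -0.33 (SE 0.44) for the P2H2 line.

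Pax5 (chromosome 4, 44524757 to 44710487, minus strand), the factor that commits cells to the B lineage, was at 57.4, 102, 90.3 and 151.7 CPM in P2KO and at 79.2, 135.6, 87.2 and 70.9 CPM in P2WT. It was at 66.5, 114.8, 33.2 and 60.2 CPM in P2H2KO and at 91.8, 127.2, 56.5 and 60.7 CPM in P2H2WT. Its highest library in each group was that of Ebf1, and the groups overlapped. For the P2 line Pax5 gave a log2 fold change of 0.12 (SE 0.29, 95% interval -0.54 to 0.78). For the P2H2 line it was -0.29 (SE 0.37, 95% interval -1.13 to 0.55). Pax5 shares 636 exon bases with 5730488B01Rik on the opposite strand, which had only 1 to 17 counts.

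The surrogate light chain genes Igll1 (16860671 to 16863985) and Vpreb1 (16868403 to 16870843) are neighbours on the minus strand of chromosome 16, 4417 bases apart. Igll1 was at 7.25, 7.67, 7.75 and 18.4 CPM in P2KO and at 11.9, 13.9, 8.66 and 6.48 CPM in P2WT. It was at 6.79, 12.2, 2.98 and 6.18 CPM in P2H2KO and at 10.6, 15.2, 6.46 and 5.29 CPM in P2H2WT. The P2KO group thus held 3 libraries close together and replicate 9 far above them. Igll1 had a log2 fold change of 0.01 (SE 0.35, 95% interval -0.77 to 0.80) in the P2 line, and of -0.42 (SE 0.44) in the P2H2 line.

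Vpreb1 was the least abundant of the 9 genes, with 41 to 237 counts per library. Its levels were 3.42, 4.77, 3.44 and 9.10 CPM in P2KO and 5.73, 8.83, 4.13 and 4.47 CPM in P2WT. They were 3.81, 6.33, 1.47 and 3.65 CPM in P2H2KO and 5.51, 8.65, 3.14 and 2.95 CPM in P2H2WT. High and low libraries were the same as for Igll1 in P2KO, P2H2KO and P2H2WT, while in P2WT the highest was again replicate 3 but the lowest was replicate 4. Vpreb1 gave a log2 fold change of -0.15 (SE 0.36, 95% interval -0.96 to 0.66) in the P2 line and -0.41 (SE 0.46, 95% interval -1.44 to 0.62) in the P2H2 line. Its value is uncertain on 2 counts. The near-identical Vpreb2 (97.4% over 759 aligned transcript bases, 3 to 23 counts) could share its reads, and 108 of its exon bases overlap Top3b on the other strand (874 to 1328 counts).

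Vpreb3 (chromosome 10, 75943057 to 75949657, plus strand) encodes a protein related to Vpreb1 that associates with immunoglobulin chains inside the cell. It was at 24.8, 36.8, 32.2 and 56.1 CPM in P2KO and at 30.1, 50.4, 34.4 and 29.5 CPM in P2WT. It was at 28.7, 49.5, 10.7 and 31.8 CPM in P2H2KO and at 47.9, 63.0, 28.5 and 25.2 CPM in P2H2WT. Replicate 15 of P2H2KO (10.7 CPM) was far below the next lowest library (24.8 CPM), and the groups overlapped. The log2 fold changes of Vpreb3 were 0.07 (SE 0.26) in the P2 line and -0.45 (SE 0.43, 95% interval -1.43 to 0.53) in the P2H2 line.

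The signalling subunits were the most abundant of the 9 per length. Cd79a (chromosome 7, 24897381 to 24902197, plus strand) was at 47.0, 79.2, 65.7 and 115.3 CPM in P2KO and at 71.1, 106.3, 68.2 and 55.6 CPM in P2WT. It was at 62.8, 92.2, 34.8 and 64.5 CPM in P2H2KO and at 90.4, 118.5, 61.4 and 54.3 CPM in P2H2WT. The groups overlapped in both lines. Cd79a had log2 fold changes of 0.04 (SE 0.28, 95% interval -0.59 to 0.67) in the P2 line and -0.35 (SE 0.32, 95% interval -1.06 to 0.36) in the P2H2 line.

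Cd79b (chromosome 11, 106311341 to 106314762, minus strand), the partner of Cd79a, was at 74.8, 106.0, 98.3 and 154.7 CPM in P2KO and at 101.3, 145.9, 93.3 and 81.9 CPM in P2WT. It was at 85.7, 119.3, 56.2 and 101.2 CPM in P2H2KO and at 127.6, 163.4, 97.7 and 80.8 CPM in P2H2WT. Within each group the libraries kept the order they had for Cd79a, and the groups overlapped again. The log2 fold changes of Cd79b were 0.05 (SE 0.24) in the P2 line and -0.37 (SE 0.26, 95% interval -0.97 to 0.22) in the P2H2 line.

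**Figure D1:**
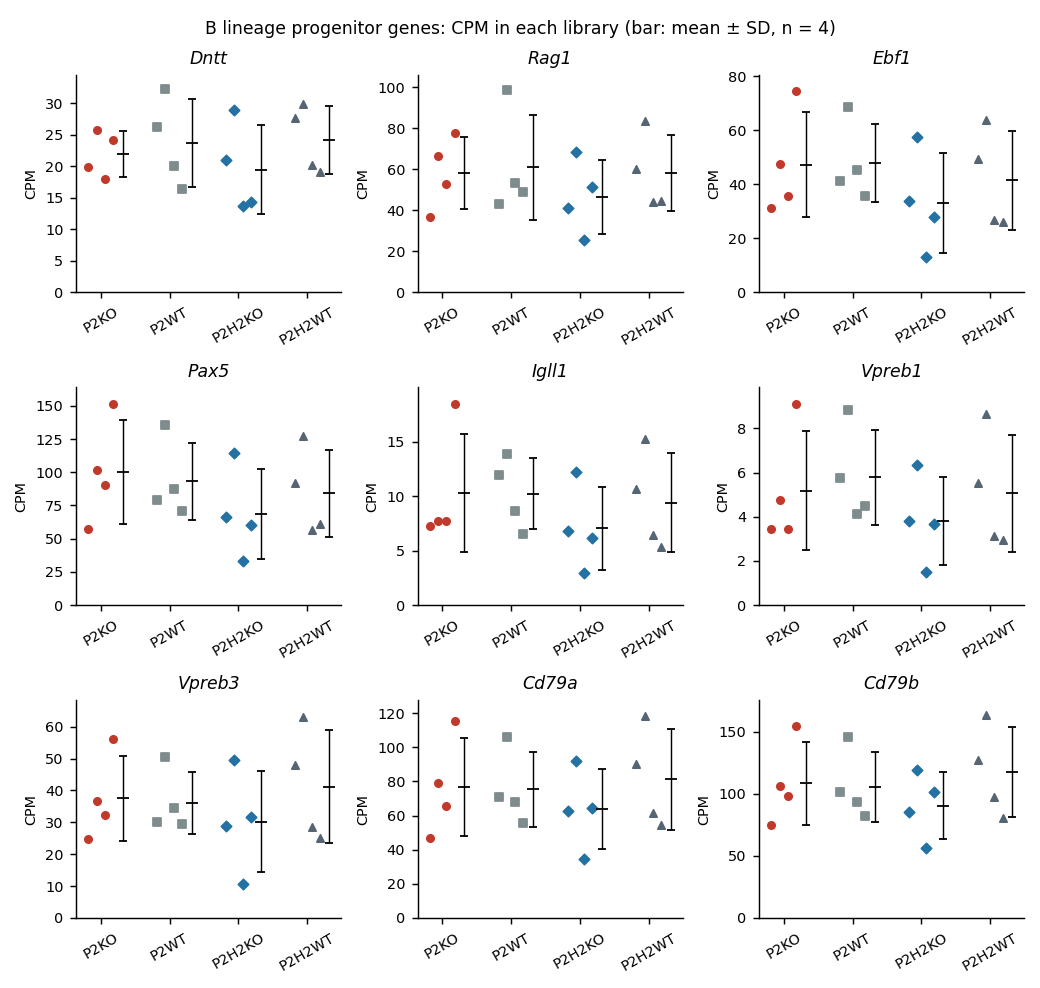
CPM of each B lineage progenitor gene (vertical axis, from 0) in the 4 libraries of each group (horizontal axis). Points are libraries in the order given in the text and bars are the mean ± SD (n = 4); the groups overlap for every gene, and the lowest point in each panel is replicate 15 of P2H2KO.

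Per kilobase of exon, the mean levels over the 16 libraries fell into 3 tiers. Cd79b (73.7 ± 20.8 CPM per kb, SD, n = 16), Cd79a (50.9 ± 16.7) and Vpreb3 (42.2 ± 15.8) were at the top, and each was above the next gene in 16 of 16 libraries. Pax5 (9.78), Dntt (9.75) and Rag1 (8.45) followed, and Ebf1 (4.34), Igll1 (4.27) and Vpreb1 (4.14) came last. Within these lower tiers neighbours did not keep their order, since Pax5 was above Dntt in 9 of 16 libraries and Igll1 above Vpreb1 in 9 of 16. The order also depended on the length used. With the longest coding transcript in place of all exons, Igll1 moved to 10.6 CPM per kb, next to Pax5 (10.8) and Dntt (10.5), and Cd79a was above Vpreb3 in only 10 of 16 libraries.

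What the genes shared most was their pattern over libraries. The log2 CPM of each gene was compared with its own mean over the 16 libraries. All 9 genes were above their means in replicate 9 of P2KO, replicate 3 of P2WT, replicate 12 of P2H2KO and replicates 13 and 14 of P2H2WT. None of the 9 was above its mean in replicate 1 of P2KO, replicate 7 of P2WT, replicates 11, 15 and 17 of P2H2KO and replicates 16 and 18 of P2H2WT. Each group therefore held libraries of both kinds. The mean deviation over the 9 genes reached 0.75 in replicate 9 of P2KO, 0.73 in replicate 14 of P2H2WT and 0.71 in replicate 3 of P2WT. It was -1.24 in replicate 15 of P2H2KO, where single genes ranged from -0.65 (Dntt) to -1.64 (Vpreb3). Dntt was the least raised gene in replicate 9 of P2KO (0.15), where Igll1 was the most raised (1.12).

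**Figure D2:**
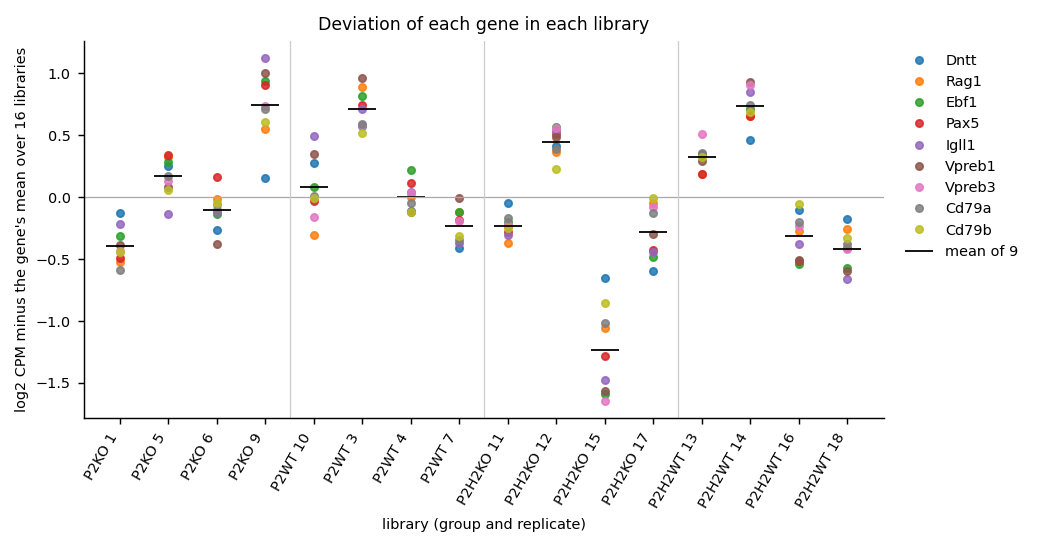
Deviation of log2 CPM from the gene's mean over 16 libraries (vertical axis) for the 9 genes in each library (horizontal axis, grouped by label). Coloured points are genes and black bars their mean, which runs from -1.24 in replicate 15 of P2H2KO to 0.75 in replicate 9 of P2KO. Points of a library can spread widely, as from 0.15 (Dntt) to 1.12 (Igll1) in replicate 9 of P2KO. Every group holds high and low libraries.

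Over the 16 libraries, with each group centred on its own mean, all 36 pairs of genes were positively correlated. Pearson's r ran from 0.718 (Rag1 and Dntt) to 0.988 (Cd79a and Cd79b), with a median of 0.941. Spearman's rho ran from 0.665 to 0.982, with a median of 0.922. Permutation tests within groups (100000 permutations) gave a largest Benjamini-Hochberg adjusted p over the 36 pairs of 0.0091 for r and 0.017 for rho. Without replicate 15 of P2H2KO and replicate 9 of P2KO, the libraries farthest from the median, r ran from 0.676 to 0.983 with a median of 0.921. Ebf1 and Pax5 had an r of 0.977 and Igll1 and Vpreb1 of 0.963. Pairs with Dntt were among the lowest, from 0.718 to 0.839, although the lowest for Igll1 was its pair with Rag1 (0.815). Both genes of a pair come from the same libraries and share their depth and scaling. The median r of all 14080 genes with the mean log2 CPM of the 9 genes was 0.0482. That is r with an average of genes, not between single genes, so it is not a like background for the 36 pairs.

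The first contrast, P2KO against P2WT, concerns the deletion of PHD2 alone, as labelled. None of the 9 genes passed the test (edgeR quasi-likelihood, adjusted p of 1 for each), in a background where 0.0437% of 13734 genes did. None passed at an unadjusted p of 0.05 either, against 3.49% of all genes. The log2 fold changes had a median of 0.01 and ran from -0.15 (Vpreb1) to 0.12 (Pax5), beside a median of 0.02 over all genes tested. Summed over the 9 genes, P2KO libraries had 465.9 ± 160.3 CPM (SD, n = 4), beside 458.5 ± 137.6 CPM for the controls. The direction rested on single libraries. Without replicate 9 of P2KO all 9 fold changes were negative, from -0.15 (Dntt) to -0.57 (Vpreb1), and without replicate 3 of P2WT all 9 were positive, from 0.08 (Dntt) to 0.35 (Pax5). All 9 of the 95% intervals included 0, and the widest, for Vpreb1, ran from -0.96 to 0.66.

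In the line labelled as lacking both PHD2 and HIF2α, all 9 fitted fold changes were below 0, and none passed the test. Their median was -0.35, from -0.45 (Vpreb3) to -0.29 (Pax5), beside a median of 0.00112 over all genes. The adjusted p was 0.9999 for each (edgeR), with 0.0744% of 13435 genes called, and none had an unadjusted p under 0.05, against 2.63% of all genes. Summed levels were 362.8 ± 146.3 CPM for P2H2KO and 461.9 ± 164.6 CPM for its controls, so the gap was smaller than either SD. Because the genes move together, the shared sign is not 9 separate observations. It weakened most without replicate 15 of P2H2KO, when the fold changes ran from -0.06 (Ebf1) to -0.20 (Cd79b), or without replicate 14 of P2H2WT, when they ran from -0.03 (Pax5) to -0.20 (Dntt). Without replicate 12 of P2H2KO they ran from -0.54 (Cd79b) to -0.83 (Igll1), and no gene was called in any of these fits.

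The difference between the effects in the 2 lines was tested in a fit of all 16 libraries. None of the 9 genes was called, and neither was any other of the 14080 genes (0%), although 1.51% of all genes had an unadjusted p under 0.05 and none of the 9 did. The estimates ran from 0.20 (Dntt, 95% interval -0.55 to 0.95) to 0.50 (Vpreb3, 95% interval -0.66 to 1.67), with adjusted p of 0.9995 (edgeR). This contrast reuses the libraries of both comparisons above. Without replicate 9 of P2KO the estimate turned to -0.015 for Igll1 and to -0.16 for Vpreb1.

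The lines themselves were compared in libraries of the same kind, where line and any difference in preparation between the tables cannot be told apart. Between P2WT and P2H2WT 1.22% of 13593 genes were called, and none of the 9 was (smallest adjusted p 0.845, for Cd79b, edgeR). An unadjusted p under 0.05 was found for 11.4% of all genes and for none of the 9. Their log2 fold changes ran from -0.20 (Vpreb3) to 0.19 (Ebf1), with 5 above and 4 below 0. Between P2KO and P2H2KO 0.279% of 13610 genes were called, again none of the 9 (smallest adjusted p 0.587, for Pax5, edgeR), and 10.7% of all genes but none of the 9 had an unadjusted p under 0.05. Here all 9 were above 0, from 0.14 (Dntt) to 0.52 (Pax5), and without replicate 9 of P2KO Cd79a was at -0.0069. Complete separation of the groups, with every library of one above every library of the other, occurred for none of the 9 genes in any of these 4 pairwise comparisons. Over all genes it occurred for 2.26% (P2 line), 1.78% (P2H2 line), 7.77% (controls) and 6.99% (labelled knockouts).

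**Figure D3:**
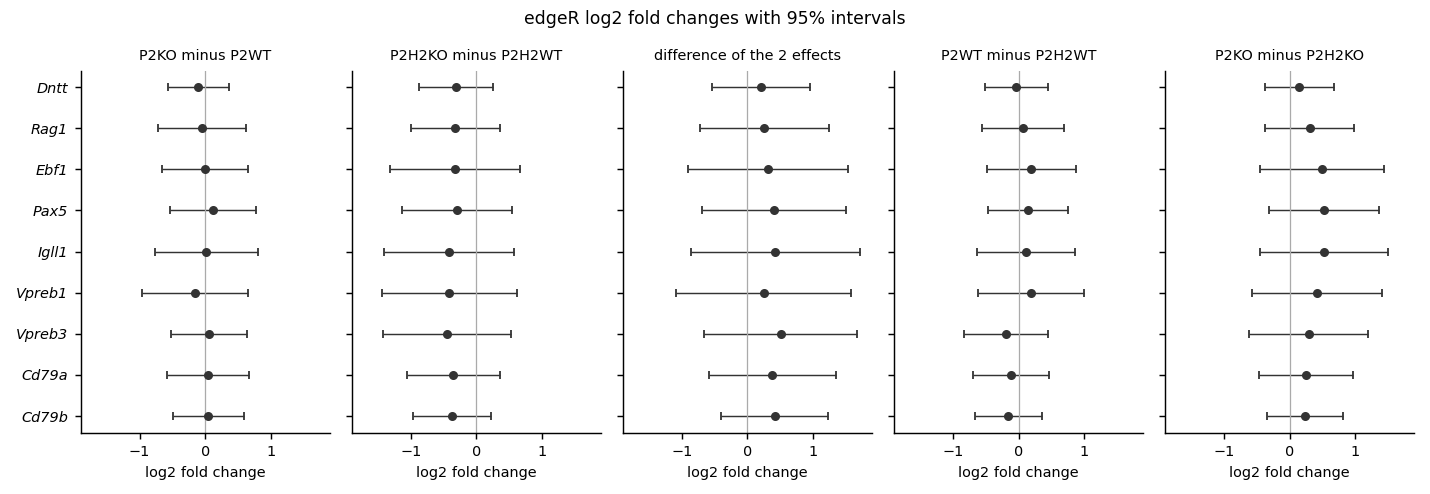
edgeR log2 fold changes (horizontal axis) of the 9 genes (vertical axis) in 5 comparisons, with 95% intervals. Every interval includes 0; the estimates lie on both sides of 0 for P2KO minus P2WT and from -0.45 to -0.29 for P2H2KO minus P2H2WT.

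Other genes of the same developmental stages were read from a list of 22 pro-B and pre-B cell genes. None of its tested genes was called in any comparison. The median of their fold changes on the log2 scale was 0.02 for the P2 line (13 above and 9 below 0) and -0.22 for the P2H2 line (3 above and 18 below 0, with 21 tested). Rag2, the partner of Rag1, was at 6.44, 8.36, 6.84 and 11.4 CPM in P2KO and 6.35, 13.2, 7.40 and 6.44 CPM in P2WT. It was at 6.10, 10.2, 1.33 and 6.95 CPM in P2H2KO and 9.38, 11.6, 4.80 and 4.77 CPM in P2H2WT. Its highest library in each group was that of Rag1, and replicate 15 of P2H2KO was again the lowest of all. Il7r, the receptor for the cytokine that early B cells need, went from 15.7 CPM in that library to 54.5 CPM in replicate 9 of P2KO.

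The likeness of every gene to the 9 was measured as Pearson's r between its log2 CPM and their mean, centred on groups, over the 16 libraries. Of the 11322 genes eligible by level and name, 98 had an r of at least 0.9. Among the 10 most alike were Blnk (0.991), Tmem108 (0.987), Pou2af1 (0.986), Cd72 (0.986), Fam129c (0.980), Slamf6 (0.979), Fcrla (0.978), Chst3 (0.976) and Blk (0.976). Blnk and Blk act downstream of the pre-B receptor, and Pou2af1 is a B cell co-activator. These genes were picked for their r, which is therefore a description and carries no test.

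Within the lists, likeness was uneven. Among the 22 pro-B and pre-B cell genes 11 had an r of at least 0.9, with a median of 0.9. Bach2, Lef1, Sox4 and Foxo1 were among the 11, and so were Il7r (0.930) and Rag2 (0.929). The 4 most abundant genes of that list stood lower, with r of 0.654 for Cd24a, 0.543 for Ikzf1, 0.311 for Syk and 0.881 for Tcf3, and neutrophils and other blood cells express several of these too. Of 13 other genes of V(D)J recombination and end joining, the general DNA repair step that seals the cut ends, only Rag2 and Lig4 (0.938) reached 0.9, and the median was 0.443. The abundant Hmgb2 (0.443), Hmgb1 (0.764), Xrcc6 (0.840) and Prkdc (0.341) serve all cells. In the list of 14 pre-B receptor signalling genes 7 reached 0.9 and the median was 0.728, with Plcg2 lowest at -0.586.

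Genes of later B cell stages varied as well. In the mature B cell list 3 of 16 genes reached 0.9 (Cd72, Fcrla and Spib) and the median was 0.736. Ms4a1, which encodes CD20, had an r of 0.760 and Ighd, the immunoglobulin D constant gene, 0.782. Cd74 (0.712) and Cd37 (0.007), the most abundant of this list, are shared with other leukocytes. Among immunoglobulin constant genes only Ighm (0.925), which is also in the pre-B receptor signalling list, reached 0.9. Igkc was at 0.611, Igha at 0.558 and Ighg2b at 0.351. Of 7 plasma cell genes Irf4 (0.974) and Mzb1 (0.966) did so, whereas Jchain was at 0.596 and Xbp1 at -0.680. By summed level, in which the most abundant genes weigh most, the mature B cell list had an r of 0.888 with the mean log2 CPM of the 9 genes and the pro-B and pre-B cell list 0.840, followed by pre-B receptor signalling (0.807), V(D)J recombination (0.780), immunoglobulin constant (0.765) and plasma cell genes (0.701). Members of the lists overlap, and several of these genes are in more than one of them.

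**Figure D4:**
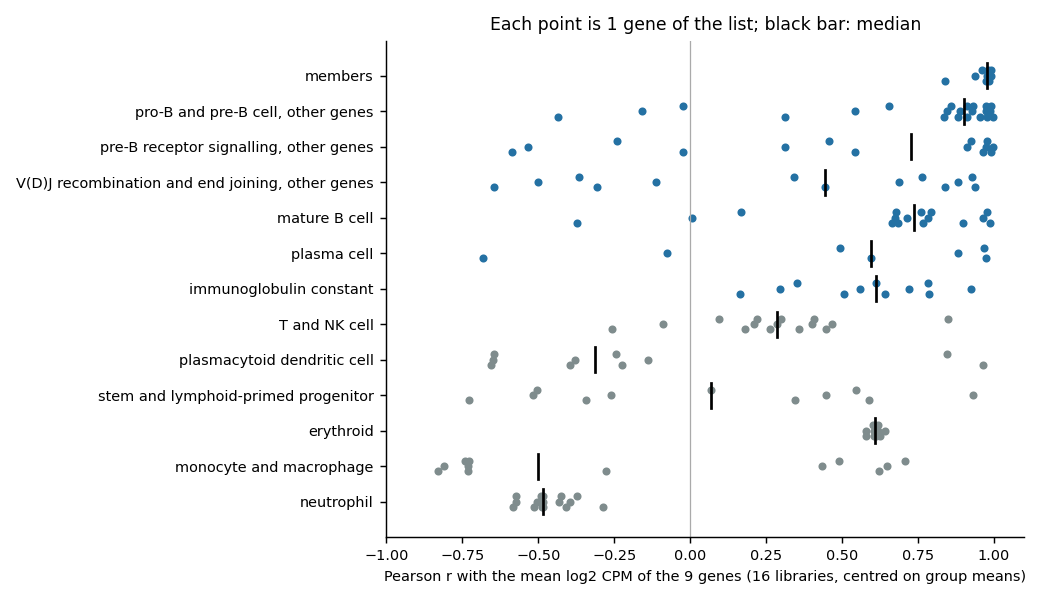
Pearson's r between each gene's log2 CPM and the mean log2 CPM of the 9 genes over 16 libraries, centred on group means (horizontal axis), for the genes of each list (vertical axis). Points are genes and black bars medians; pro-B and pre-B cell genes have a median of 0.9, erythroid genes of 0.610, and monocyte and macrophage (-0.503) and neutrophil genes (-0.483) lie below 0.

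Markers of other cells in the sorted samples also varied along with these genes, some in the same and some in the opposite direction. Their part in the results was not tested. The summed level of 12 monocyte and macrophage genes was lowest in replicate 9 of P2KO (2209 CPM) and highest in replicate 15 of P2H2KO (4610 CPM), the libraries at the opposite ends for the B lineage genes. Its r with their mean log2 CPM was -0.799 over 16 libraries (rho -0.859, and -0.697 without those 2 libraries). It ranged from 2209 to 2969 CPM in P2KO, 2906 to 3613 in P2WT, 2483 to 4610 in P2H2KO and 2649 to 4361 in P2H2WT. Ly6c2 (-0.830), Csf1r (-0.810), F13a1 (-0.741) and Ccr2 (-0.727), genes of monocytes, lay below 0, as did the macrophage gene Adgre1 (-0.278). Vcam1 (0.621) and the complement genes C1qb (0.648), C1qc (0.491) and C1qa (0.435) of resident macrophages lay above 0, and without the 2 extreme libraries C1qc was at 0.236 and C1qa at 0.187.

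Neutrophil genes went the other way from the B lineage genes in all 16 members of their list, with r from -0.583 to -0.288. Their sum had an r of -0.513 (rho -0.597) and ranged from 35201 to 79240 CPM in P2KO, 45333 to 67614 in P2WT, 48463 to 89795 in P2H2KO and 50018 to 75508 in P2H2WT. S100a9, Ngp, Ltf and S100a8 made up most of it. Erythroid genes went with the B lineage genes, with r from 0.579 to 0.640 for the 11 matched genes and 0.613 for their sum (0.462 without the 2 extreme libraries). That sum ranged from 25549 to 45771 CPM in P2KO, 31556 to 43800 in P2WT, 25403 to 48026 in P2H2KO and 36686 to 51613 in P2H2WT. In the P2H2 line the 11 erythroid genes were all below 0 in fold change (median -0.18) and the 16 neutrophil genes all above 0 (median 0.19), none of them called, beside the 9 B lineage genes all below 0.

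Among lymphoid cells, T and NK cell genes had a summed level of 83.8 to 124.5 CPM over the 16 libraries. The sum of the 9 B lineage genes was 191.4 to 681.5 CPM. Sums over different genes do not give relative amounts of cells. The T and NK cell sum ranged from 83.8 to 118.6 CPM in P2KO, 112.9 to 124.5 in P2WT, 94.5 to 124.5 in P2H2KO and 107.7 to 118.1 in P2H2WT. The median r of the 15 T and NK cell genes that passed the filter was 0.285 and none reached 0.9. Lck (0.849) came closest, ahead of Cd4 (0.181), Nkg7 (0.096) and Gzma (-0.089). Ptcra, which encodes the pre-T receptor chain and marks T cell progenitors, which also use Rag1 and Dntt, had 0.00 to 0.08 CPM and did not pass the filter. Plasmacytoid dendritic cell genes, some of which B progenitors share, had a median r of -0.312, with Irf8 at -0.650 and Tcf4 at -0.244 but Spib at 0.963 and Ly6d at 0.846. Stem and lymphoid-primed progenitor genes had a median of 0.069, with Cd48 at -0.729, Satb1 at -0.343 and Kit at 0.344.

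Ratios of counts within a library do not depend on its depth, and 16 of them were computed after the levels were known, without a test. Dntt per Cd79a was nearly the same in the 4 groups, at 0.308 ± 0.090 (SD, n = 4) in P2KO, 0.315 ± 0.037 in P2WT, 0.316 ± 0.072 in P2H2KO and 0.310 ± 0.043 in P2H2WT. Over libraries it went from 0.209 in replicate 9 of P2KO, where the B lineage genes were highest, to 0.423 in replicate 1 of P2KO, where they were low. Cd79b per Cd79a was the tightest over all libraries, from 1.29 to 1.61.

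Ebf1 per Cd79a was 0.579, 0.646, 0.666 and 0.645 in P2WT and 0.548, 0.538, 0.436 and 0.481 in P2H2WT, with no overlap, beside 7.77% of all genes whose levels did not overlap between these controls. In the libraries labelled as knockouts it was 0.666, 0.599, 0.540 and 0.646 in P2KO and 0.540, 0.625, 0.370 and 0.431 in P2H2KO, which overlapped. Pax5 per Cd79a had means of 1.30 in P2KO and 1.24 in P2WT but 1.05 in P2H2KO and 1.03 in P2H2WT, with overlap in each pair. Over 16 ratios and 4 pairs of groups, 2 of 64 did not overlap, and the other was Vpreb2 per Vpreb1, from 0.097 to 0.183 in P2KO and from 0.049 to 0.091 in P2H2KO, beside 6.99% of all genes. It rests on the few counts of Vpreb2. The 7.77% and 6.99% are for levels of single genes, which can overlap more or less often than ratios, and no share is given for ratios of other genes. The ratio of Ebf1 was singled out after its values were seen, and the line comparisons of Ebf1 and Pax5 levels gave no call.

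Replicate 15 of P2H2KO was also at the extreme of several ratios. Its ratio of Rag2 to Rag1 was 0.052, against 0.108 to 0.175 in the other 15 libraries, and its Vpreb3 per Cd79a was 0.308, against a median of 0.488 over all libraries. Its Ebf1 (0.370), Igll1 (0.086) and Vpreb1 (0.042) per Cd79a were the lowest of all, as was its Vpreb3. Its ratios of the mature B cell genes Ms4a1 (1.05) and Ighd (0.493) to Cd79a were the highest of all, and so was that of Ighm (18.5). Rag1 per Cd79a (0.730) was near its median of 0.759, and Dntt per Cd79a (0.395) was above its median of 0.310. Replicates 17 of P2H2KO and 16 of P2H2WT, also f, came next for Ms4a1 (0.991 and 0.953) and Ebf1 (0.431 and 0.436) per Cd79a. In the P2 line the highest Ms4a1 per Cd79a was in an m library, replicate 6 of P2KO (0.939). Ighm per Cd79a was nearly as high in replicate 18 of P2H2WT (17.8), an m. Whether ratios follow the title suffix was not tested.

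**Figure D5:**
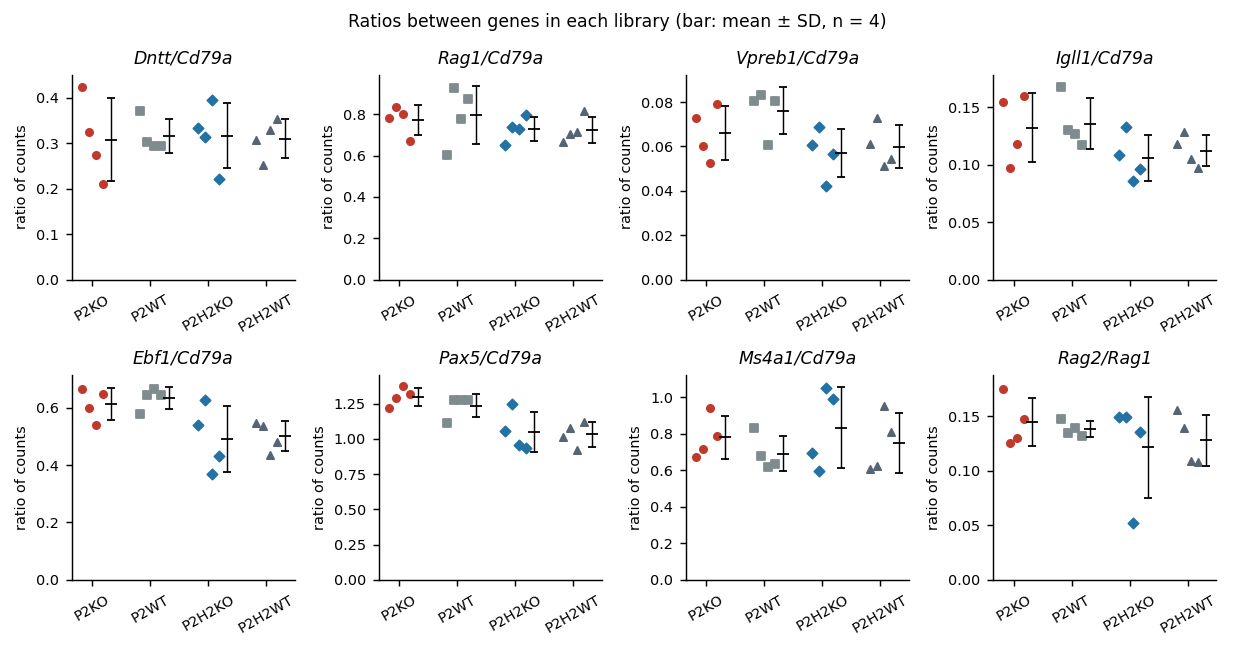
Ratios of counts between genes (vertical axis, from 0) in the 4 libraries of each group (horizontal axis). Points are libraries and bars the mean ± SD (n = 4); the lowest Rag2/Rag1 (0.052) and the highest Ms4a1/Cd79a (1.05) are both replicate 15 of P2H2KO.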

How the data were processed

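RNA sequencing libraries of 16 mouse neutrophil samples, 4 per group, were read from 2 deposited tables of 8 libraries, 1 per line. The values are raw counts per Ensembl gene as deposited by the authors, made with HTSeq on mm10, per the submitters' processing notes. The aligner, annotation and strand setting are not given in the sources used here. Symbols matched 49326 of 49585 identifiers, and the other 259 held 0.00714% of counts. Groups came from the labels. Nothing in the labels says whether libraries of a group are separate mice, and p-values then measure only the spread between these libraries, which may be technical.

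From the deposited counts, CPM were computed on TMM-scaled library sizes, and log2 CPM with a prior count of 2. Comparisons were fitted with edgeR 4.0.16 in R 4.3.3 (filterByExpr, robust quasi-likelihood test, two-sided, Benjamini-Hochberg adjustment over all genes tested, threshold 0.05), after tests on simulated data. Promoters came from RefSeq tables, gene positions from GENCODE M21, and Vpreb1 was aligned to Vpreb2 with blastn 2.17.0. The alternatives tried were other scalings, other count filters, DESeq2 1.42.0, the title suffix (m or f, unequal between groups) as a covariate and leaving out each library. The 9 genes and the gene lists were chosen with earlier results of these data known. The rule for named genes took all 9, the 10 genes with the highest r to their mean log2 CPM, the 4 most abundant genes of each list and any list gene called. Other list genes named in the text were chosen after their values were seen, and some genes that the rule or the lists hold are not reported here.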

Additional observations from a re-analysis of the deposited data

Results flagged for a closer look

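In each group of 4 libraries, the gap between the highest or lowest library and its neighbour was set against the group's whole range. Of 104 groups of values tested in this way (levels of the 9 genes, their sum and 16 ratios), 5 held a library past Dixon's 95% critical value, and chance flags about 1 in 20 groups. Igll1 was at 18.43 CPM in replicate 9 of P2KO, against 7.25 to 7.75 CPM in the other P2KO libraries, a gap of 0.955 of the range. In P2WT, replicate 10 had a ratio of Dntt to Cd79a of 0.3702 (others 0.2935 to 0.3036) and of Pax5 to Cd79a of 1.114 (others 1.275 to 1.279). Replicate 4 of P2WT had a ratio of Vpreb1 to Cd79a of 0.0605 (others 0.0803 to 0.0831). In replicate 15 of P2H2KO the ratio of Rag2 to Rag1 was 0.05233 (others 0.135 to 0.150), which rests on 37 counts of Rag2.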

How the results depend on the processing

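None of the 9 genes was called in any comparison under any alternative (702 fits, smallest adjusted p 0.378, for Pax5 in P2KO minus P2H2KO without replicate 12 of P2H2KO). With the title suffix as a covariate, P2WT minus P2H2WT turned from -0.11 to 0.0028 for Cd79a and from -0.03 to 0.043 for Dntt; the cause was not tested. Leaving out single libraries gave ranges across 0. For P2KO minus P2WT these were -0.23 to 0.25 (Cd79a), -0.175 to 0.24 (Cd79b), -0.25 to 0.076 (Dntt), -0.32 to 0.22 (Ebf1), -0.43 to 0.19 (Igll1), -0.16 to 0.35 (Pax5), -0.22 to 0.28 (Rag1), -0.57 to 0.12 (Vpreb1) and -0.20 to 0.27 (Vpreb3). For P2WT minus P2H2WT they were -0.33 to 0.12 (Cd79a), -0.35 to 0.042 (Cd79b), -0.22 to 0.11 (Dntt), -0.031 to 0.47 (Ebf1), -0.085 to 0.44 (Igll1), -0.092 to 0.41 (Pax5), -0.27 to 0.29 (Rag1), -0.0875 to 0.57 (Vpreb1) and -0.40 to 0.083 (Vpreb3). They were -0.0069 to 0.47 for Cd79a in P2KO minus P2H2KO, and -0.015 to 0.815 (Igll1) and -0.16 to 0.60 (Vpreb1) for the difference of effects. Over all genes, DESeq2 called 23 in place of 6 (P2 line), 42 in place of 10 (P2H2 line), 419 in place of 166 (controls) and 255 in place of 38 (labelled knockouts). At least 10 counts in every library gave 87 in the controls and 12 in the labelled knockouts, where no filter gave 63 and the suffix covariate 150. Without single libraries the counts were 4 to 6, 6 to 9, 76 to 167 and 11 to 26, the lowest of the last pair without replicate 10 of P2WT and replicate 17 of P2H2KO. No paired analysis was possible because no replicate number is shared between the groups. Counting error is largest for Vpreb1, with 41 counts in its lowest library.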

Other observations

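Immunoglobulin constant genes were compared between the lines, and none was called. Apart from Ighm, which pre-B cells also use, they mainly mark later B cells and plasma cells. Igha, the immunoglobulin A constant gene, had 191 ± 51.1 CPM in the P2KO libraries (SD, n = 4) and 268 ± 88.7 in P2WT, against 495 ± 224 in P2H2KO and 535 ± 247 in P2H2WT. Its log2 fold change was -1.001 (SE 0.34, adjusted p 0.266, edgeR) between the controls and -1.40 (SE 0.32, adjusted p 0.210, edgeR) between the labelled knockouts. Igha was not the extreme of the 11 constant genes. Their lowest log2 fold change was -1.69 between the controls and -1.55 between the labelled knockouts. The smallest adjusted p in the latter was 0.148 (edgeR). Jchain, which joins immunoglobulin A and M subunits, was at 109.5 ± 7.36 CPM in P2WT and 197 ± 60.7 in P2H2WT, a log2 fold change of -0.85 (SE 0.20, adjusted p 0.081, edgeR). The 11 constant genes had a median log2 fold change of -0.70 between the controls, with all 11 below 0, but of 0.09 between the labelled knockouts, with 6 above and 5 below 0.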
